A study of Homo sapiens with 9 samples.

Results

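The 10 genes described here encode heat shock proteins of the cytosol and the mitochondria and their close partners: HSPA1A, HSPA1B, HSPA8, HSPH1, HSP90AA1, HSPB1, HSPD1, HSPE1, DNAJB1 and BAG3. They were taken by gene name from a table of 58735 genes, and all 10 were found. RNA was sequenced from GBM43, a patient-derived glioblastoma cell line, in hyaluronic acid gel devices in which cells invade outwards from a core. From control devices, 3 libraries came from the core and 3 from the invasive fraction, which were separated with a scalpel. Devices given 50 µM MK801, which blocks NMDA-type glutamate receptors, gave 3 libraries of core and invasive cells together, because few cells had invaded. The labels name both plain medium and DMSO vehicle for the control devices. Cells of all groups were freed from the gel with hyaluronidase before RNA extraction. The labels do not say whether replicate libraries are separate cultures, and every p-value here therefore reflects library-to-library spread alone, which may be technical.

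Heat shock proteins are chaperones that keep other proteins folded. HSP70 proteins bind exposed stretches of a client in a cycle driven by ATP, J-domain proteins such as DNAJB1 deliver the client, and exchange factors such as HSPH1 and BAG3 release the nucleotide so that the cycle can restart. HSP90 matures kinases and receptors, small heat shock proteins such as HSPB1 hold unfolded clients, and HSPD1 with its lid HSPE1 forms the folding chamber of mitochondria. Heat and other protein-damaging stresses raise many of these genes through the transcription factor HSF1, whereas HSPA8 is the HSP70 form that cells make without stress.

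Levels are in FPKM, fragments scaled by gene length and by a factor for each library. The length counts every annotated exonic base of a gene, 4849 for HSPA8 and 2483 for HSPA1A, whether or not these cells use it. Levels of different genes are therefore only roughly comparable, and their order below holds for this length. The libraries held 15584610 to 54409666 fragments assigned to genes, and the 10 genes had 186 to 98905 fragments each per library. The mean GC content of the sequenced transcripts was 50.4 to 51.6% in core libraries, 53.1 to 54.7% in invasive libraries, and 54.6, 53.5 and 51.1% in MK801 replicates 1, 2 and 3. Of 12 glioma and neural stem markers, SOX2, VIM, EGFR, PDGFRA and CD44 were at 1 FPKM or more in all 9 libraries, and 7 were under 1 FPKM in all 9, among them NES and GFAP, with OLIG2 and CHI3L1 at 0. Of 10 fibroblast and pericyte markers 8 reached 1 FPKM in some library, with DCN and RGS5 under 1 FPKM throughout. The summed level of the 10 was 73.6 to 148 FPKM in core, 357 to 628 in invasive and 85.6 to 202 in MK801 libraries. COL1A1 and COL1A2 weighed most in this sum, at 27.2 to 57.8 and 31.9 to 68.9 FPKM in core and 185 to 341 and 127 to 205 in invasive libraries. RGS5 was lower in every invasive than in every core library, DCN and FAP overlapped, and the remaining markers were higher. No neuronal marker of 8 reached 1 FPKM. The part of GC content and of the fibroblast markers in the results below was not tested, except where values with the GC trend removed are given. In bulk RNA, fewer cells with a transcript and less transcript per cell cannot be told apart.

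The promoters of 4 of the genes are printed, from genes that stood lower (HSPA1A, HSPA1B), level (DNAJB1) and higher (HSPB1) in the invasive fraction. All 4 hold a match to the heat shock element, which is not so for every member. The sequences are RefSeq's on GRCh38.p14, read 5′ to 3′ on the strand of the gene, and hold the bases upstream of the RefSeq start that lie in no annotated exon. Capitals mark matches to the heat shock element, searched as the paired forms GAANNTTC and TTCNNGAA, each of which reads the same on both strands. A triple form joins a paired form of one kind to the other, sharing the middle unit, and so always holds both.
HSPA1A, chr6:31815293-31815463, plus strand: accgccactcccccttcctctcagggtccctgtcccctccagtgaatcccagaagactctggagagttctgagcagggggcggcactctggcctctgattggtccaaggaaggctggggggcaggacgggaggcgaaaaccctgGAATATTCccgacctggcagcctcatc
HSPA1B, chr6:31827488-31827734, plus strand: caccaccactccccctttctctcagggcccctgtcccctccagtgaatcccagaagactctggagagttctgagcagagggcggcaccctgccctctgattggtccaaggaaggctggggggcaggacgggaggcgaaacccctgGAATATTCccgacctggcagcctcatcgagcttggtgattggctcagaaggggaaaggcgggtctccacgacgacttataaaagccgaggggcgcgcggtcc
DNAJB1, chr19:14518421-14518647, minus strand: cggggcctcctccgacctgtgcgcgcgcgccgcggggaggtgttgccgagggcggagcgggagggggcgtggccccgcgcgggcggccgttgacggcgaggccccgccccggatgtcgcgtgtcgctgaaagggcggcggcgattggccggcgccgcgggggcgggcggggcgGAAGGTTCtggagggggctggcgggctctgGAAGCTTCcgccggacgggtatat
HSPB1, chr7:76302423-76302543, plus strand: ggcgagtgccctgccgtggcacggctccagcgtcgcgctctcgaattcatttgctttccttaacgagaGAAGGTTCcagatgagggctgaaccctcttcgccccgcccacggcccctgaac
The 250 bases upstream of HSPA1A and HSPA1B shared 235 identical bases in a global alignment, with 14 mismatches and 2 gaps. Counted from the RefSeq start, their GAANNTTC match began at -106 and -105. RefSeq gave 14 promoters for the 10 genes, since some genes have several starts. DNAJB1 has 3, and the printed promoter is that of the only start with a match. A paired form was found in 7 of the 14, from 7 genes, and in 11.6% of all 35116 promoters of the same length. None was found for HSPH1, which stood lower in the invasive fraction, for BAG3, whose mean was higher there, or for HSPE1. A triple form was found in 3 of the 14, from HSPA8, HSP90AA1 and HSPD1, and in 0.441% of all promoters. These are matches of letters and say nothing of binding.

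The levels of the 10 genes in core libraries spanned from 272 ± 5.92 FPKM (SD, n = 3) for HSPA8 to 10.1 ± 0.744 for HSPE1. Between them came HSPB1 (143 ± 30.6), HSP90AA1 (100.4 ± 24.3), DNAJB1 (96.4 ± 8.86), HSPA1B (62.5 ± 10.9), HSPD1 (55.4 ± 6.24), HSPA1A (40.7 ± 5.87), BAG3 (22.6 ± 5.07) and HSPH1 (16.0 ± 2.71). Neighbours in this order whose core libraries overlapped were HSPB1 with HSP90AA1, HSP90AA1 with DNAJB1, HSPA1B with HSPD1, and BAG3 with HSPH1. In core libraries the constitutive HSP70 gene thus had the highest FPKM of the 10, above both stress-inducible HSP70 genes. The mean of HSPB1 was above that of HSPA8 in invasive (304 ± 113 against 266 ± 10.2 FPKM) and MK801 libraries (344 ± 214 against 313 ± 25.8), with overlapping libraries.

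**Figure D1:**
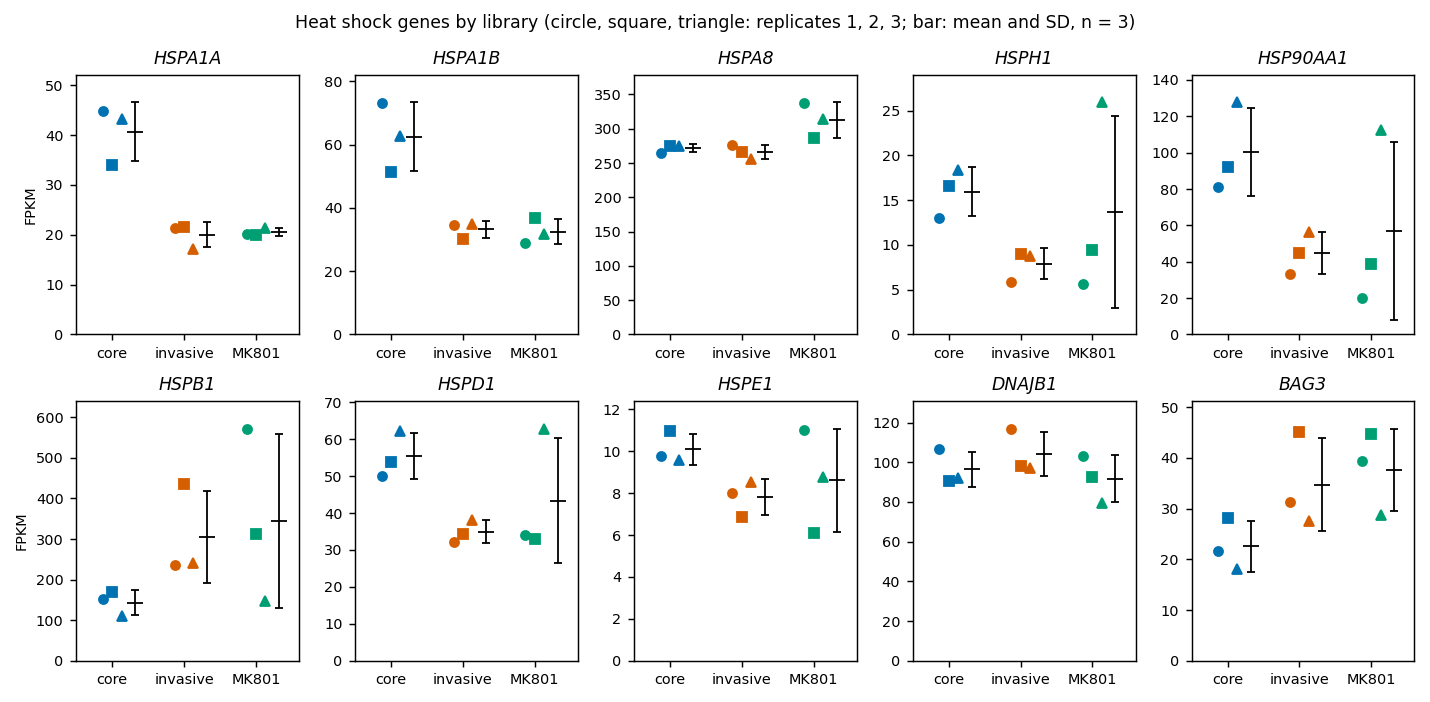
FPKM of the 10 genes (y axes from 0) in each core, invasive and MK801 library, with replicates 1, 2 and 3 as circle, square and triangle and the mean ± SD beside them. All 3 MK801 libraries of HSPA1A lie between 19.98 and 21.4 FPKM, below every core library, whereas MK801 replicate 3 lies at or above the core level for HSP90AA1, HSPH1 and HSPD1.

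The first question was how invasive cells differed from core cells of control devices. The stress-inducible HSP70 genes HSPA1A and HSPA1B, the HSP90 gene HSP90AA1 and the exchange factor HSPH1 stood at about the same fraction of their core level in the invasive fraction, 0.491, 0.532, 0.447 and 0.495 times. HSPB1 stood 2.12 times higher, and HSPA8 and DNAJB1 were level. The fit used limma on log2(FPKM + 1) with all 9 libraries and adjusted p by Benjamini-Hochberg over the 11845 genes that reached 1 FPKM in at least 3 libraries, with a threshold of 0.05. All 10 genes passed that filter in every group. In this fit 0 of the 10 genes were past the threshold, as were 0% of all genes tested. At an unadjusted p under 0.05 there were 5 of the 10, and 37.7% of all genes tested. limma-voom on recovered fragments also called 0 of the 10 and 0% of all genes tested. The groups did not overlap for 7 of the 10 genes (6 lower, 1 higher), against 64.8% of all genes tested (32.8% lower, 32% higher). The share of the 10 is thus near that of all genes in total, though not for lower and higher genes taken apart, which was not tested. In all counts of the 10 genes the nearly identical HSPA1A and HSPA1B count separately.

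HSPA1A (ENSG00000204389, chromosome 6, 31815464 to 31817946) and HSPA1B (ENSG00000204388, chromosome 6, 31827735 to 31830255) encode nearly the same inducible HSP70 protein and have to be read together. Of the 100-base windows of the HSPA1A transcript, 69.9% occur unchanged in HSPA1B, so counting could move fragments between them or lose them. In addition, 36.5% of the exonic bases of HSPA1B lie in exons of the non-coding gene AL671762.1, which was listed at 0 in all 9 libraries. HSPA1A was at 44.9, 34.0 and 43.2 FPKM in core replicates 1, 2 and 3, and at 21.4, 21.5 and 17.1 FPKM in the invasive replicates. HSPA1B was at 73.2, 51.4 and 62.8 FPKM in core and at 34.7, 30.1 and 34.9 FPKM in invasive replicates. Every core library was above every invasive library for both genes. The ratio of HSPA1B to HSPA1A ranged from 1.40 to 2.03 over the 9 libraries, and their sum was 103 ± 16.5 FPKM in core and 53.2 ± 2.45 in invasive libraries.

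The fitted difference of HSPA1A, invasive minus core, was log2 -0.99 (SE 0.21, limma adjusted p = 0.0794), and that of HSPA1B was -0.88 (SE 0.22, limma adjusted p = 0.0958). Fitted as 1 gene, their sum gave -0.93 (SE 0.22, limma adjusted p = 0.0902). In the fit of the 6 control libraries alone, where the MK801 libraries add nothing to the estimate of spread, both fell (limma adjusted p = 0.0039 for HSPA1A and 0.0054 for HSPA1B). With the GC trend of each library removed, the differences were larger, -1.62 (SE 0.24) and -1.50 (SE 0.27), with limma adjusted p of 0.058 for both. Both genes are rich in GC, at 59.3 and 58.7% of their transcripts. Of the 11845 genes tested, 763 had a lower difference than HSPA1A before the GC trend was removed and 34 after.

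HSPA8 (ENSG00000109971, chromosome 11, 123057489 to 123063230), the constitutive HSP70, was at 264.9, 275.5 and 274.6 FPKM in core and 276.5, 266.1 and 256.1 FPKM in invasive replicates. The groups overlapped, and the fitted difference was log2 -0.03 with a 95% interval from -0.53 to 0.47. Its transcripts hold 47.1% GC, and with the GC trend removed the difference was 0.24 (SE 0.19). The near-level HSPA8 thus stood beside lower inducible HSP70 genes in the same libraries, a contrast between genes that was not itself tested.

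The J-domain partner DNAJB1 (ENSG00000132002, chromosome 19, 14514770 to 14529770) is heat-inducible like HSPA1A but was not lower in the invasive fraction. It was at 107, 90.5 and 92.2 FPKM in core and 117, 98.4 and 97.1 FPKM in invasive replicates, with overlapping groups. The fitted difference was log2 0.11 (95% interval -0.38 to 0.60), and it turned to -0.32 (SE 0.17) with the GC trend removed and to -0.20 when FPKM was scaled to the gene total. In exons, 6.21% of its bases overlap other genes on the opposite strand, among them TECR, which was at 9.17 to 13.0 FPKM in core and 28.2 to 69.8 FPKM in invasive libraries. Whether counting used strand is not given in the sources used here.

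The HSP110 gene HSPH1 (ENSG00000120694, chromosome 13, 31134974 to 31162388), an exchange factor of HSP70, was at 13.0, 16.6 and 18.3 FPKM in core and 5.89, 8.98 and 8.81 FPKM in invasive replicates. The fitted difference was log2 -0.94 (SE 0.43, limma adjusted p = 0.135). HSPH1 has the lowest GC content of the 10 (38.9%), and its difference was -0.20 (SE 0.22) once the GC trend was removed. The other exchange factor, BAG3 (ENSG00000151929, chromosome 10, 119651370 to 119677819), which also links HSP70 to selective autophagy, was at 21.6, 28.1 and 18.1 FPKM in core and 31.4, 45.1 and 27.6 FPKM in invasive replicates. Only core replicate 2 reached into the invasive range. BAG3 is rich in GC (59.1%), and its difference of log2 0.59 (SE 0.27, limma adjusted p = 0.137) became -0.04 (SE 0.19) with the GC trend removed.

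HSP90AA1 (ENSG00000080824, chromosome 14, 102080738 to 102139699), the inducible cytosolic HSP90, was at 81.3, 92.2 and 128 FPKM in core and 33.2, 44.8 and 56.5 FPKM in invasive replicates. All core libraries were above all invasive ones. The difference was log2 -1.15 (SE 0.51, limma adjusted p = 0.128), and -0.84 (SE 0.42) with the GC trend removed. The small heat shock protein gene HSPB1 (ENSG00000106211, chromosome 7, 76302544 to 76304295) went the other way, at 151, 169 and 109.5 FPKM in core and 237, 435 and 241 FPKM in invasive replicates. Its difference of log2 1.04 (SE 0.46, limma adjusted p = 0.129) was 0.33 (SE 0.26) with the GC trend removed. At 62.9% HSPB1 has the highest GC content of the 10.

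The mitochondrial pair is transcribed in opposite directions from neighbouring starts. HSPD1 (ENSG00000144381, chromosome 2, 197486581 to 197516737), the chaperonin, was at 50.0, 53.9 and 62.2 FPKM in core and 32.3, 34.5 and 38.2 FPKM in invasive replicates. The groups did not overlap, with a difference of log2 -0.65 (SE 0.27, limma adjusted p = 0.121) that was -0.30 (SE 0.18) with the GC trend removed. HSPE1 (ENSG00000115541, chromosome 2, 197499994 to 197503457), its lid, was at 9.78, 10.96 and 9.58 FPKM in core and 8.01, 6.86 and 8.54 FPKM in invasive replicates. The groups did not overlap here either, but the difference was only log2 -0.34 (95% interval -0.84 to 0.17). The level of HSPE1 is uncertain, since 23.9% of its exonic bases also belong to HSPD1 or to the read-through gene HSPE1-MOB4, and 17.04% of the 100-base windows of its longest transcript occur in other genes.

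**Figure D2:**
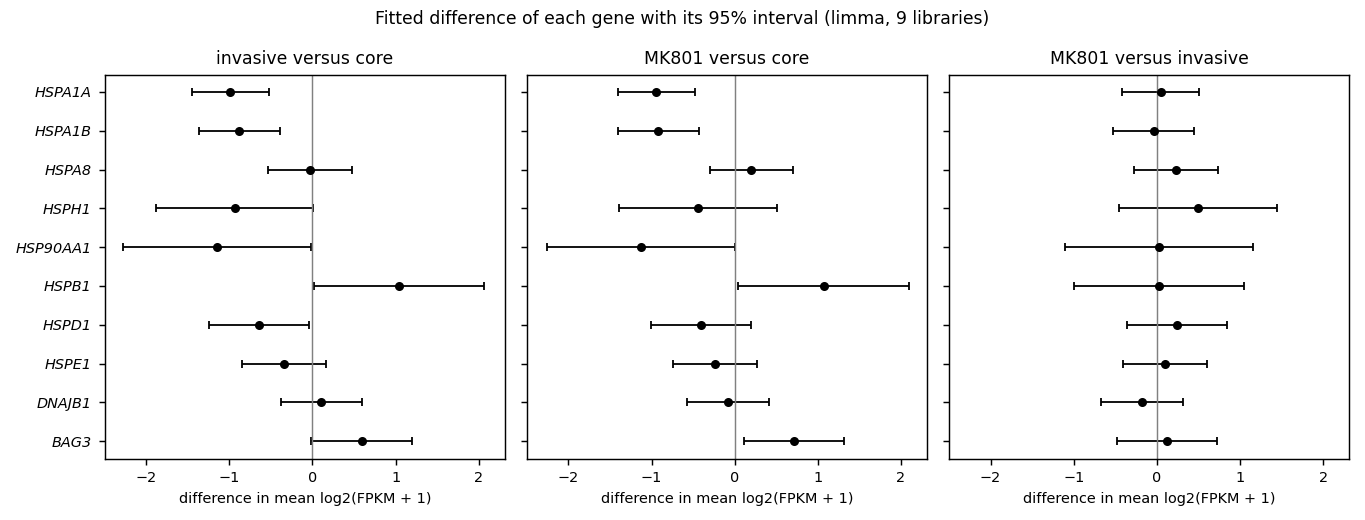
Fitted difference in mean log2(FPKM + 1) of each gene with its 95% interval, for 3 comparisons of 3 against 3 libraries. HSPA1A and HSPA1B lie between -0.99 and -0.88 against core in the invasive and the MK801 panel, with intervals that leave out 0, and all intervals of MK801 versus invasive include 0.

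Calls for the 10 genes depended on which libraries shared the estimate of spread. In the fit of the 6 control libraries, HSPA1A, HSPA1B, HSPH1, HSP90AA1 and HSPD1 fell and HSPB1 rose, 6 of 10, where 54.6% of all genes tested were called (26.9% lower and 27.8% higher). With the GC trend removed in that fit, HSPA1A, HSPA1B and HSP90AA1 fell (limma adjusted p = 0.0063, 0.0068 and 0.0277), 3 of 10, against 21.2% of all genes called and 10.2% called lower. Leaving out MK801 replicate 1 or 3 from the fit of 9 libraries gave 5 and 6 of the 10. Without replicate 1, 39.9% of all genes were called (19.5% lower and 20.3% higher), and without replicate 3, 42.1% (19.7% lower and 22.4% higher).

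The second question was how cells of MK801 devices differed from control core cells. The MK801 libraries pool core and invasive cells that were not separated. The drug, the mix of fractions and the separation step therefore cannot be told apart here. In MK801 libraries HSPA1A stood at 0.505 and HSPA1B at 0.519 times the core mean, close to their level in the invasive fraction, while HSPB1 stood at 2.40 and BAG3 at 1.67 times. HSPA8 was 1.15 times the core mean and was above all 6 control libraries in each of the 3 MK801 libraries. This comparison shares its core libraries with the first, so the values of both stand side by side and their likeness is no separate result. Limma on all 9 libraries called 0 of the 10 genes and 0% of all genes, with 4 of the 10 and 21.2% of all genes at an unadjusted p under 0.05. limma-voom called 0 of the 10 and 0% of all genes as well. The groups did not overlap for 4 of the 10 (HSPA1A and HSPA1B lower, HSPA8 and BAG3 higher), against 18.7% of all genes tested (8.82% lower and 9.89% higher).

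HSPA1A was at 20.2, 19.98 and 21.4 FPKM and HSPA1B at 28.9, 36.7 and 31.6 FPKM in MK801 replicates 1, 2 and 3. All 3 libraries were below the lowest core library of each gene, and the SD of HSPA1A was 0.782 FPKM. The differences from core were log2 -0.94 (SE 0.21) and -0.92 (SE 0.22), each with a limma adjusted p of 0.235. With the GC trend removed they were -1.43 (SE 0.24, limma adjusted p = 0.292) and -1.39 (SE 0.27, limma adjusted p = 0.372). Of 11845 genes, 16 then had a lower difference than HSPA1A.

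The MK801 libraries differed widely from each other for other members. They also differed in depth, with 18393348, 16477165 and 54409666 fragments assigned to genes in replicates 1, 2 and 3. Replicate 3 was the deepest of the 9 libraries, and the part of depth was not tested. HSP90AA1 was at 20.1, 38.6 and 113 FPKM, HSPH1 at 5.68, 9.46 and 25.9 FPKM, and HSPD1 at 34.1, 32.9 and 62.9 FPKM in replicates 1, 2 and 3. In each of these genes replicate 3 was within the core range or above it, and the other replicates were below every core library. HSPB1 showed the reverse order, at 572, 313 and 146 FPKM, with replicate 3 within the core range. Without replicate 3, limma called 7 of the 10 genes in MK801 versus core, with HSPA1A, HSPA1B, HSPH1, HSP90AA1 and HSPD1 lower and HSPB1 and BAG3 higher (limma adjusted p from 0.0076 to 0.0192), where 51.1% of all genes were called (25.3% lower and 25.8% higher). The difference of HSPH1 ranged from log2 -1.01 without replicate 3 to -0.00 without replicate 1, so it rested on single libraries. In the fit of the 6 MK801 and core libraries alone, limma called 0 of the 10 genes and 0% of all genes tested.

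The remaining members varied less. HSPA8 was at 338, 286 and 314 FPKM in MK801 replicates (log2 0.20 against core, 95% interval -0.30 to 0.70), and this sign turned to -0.10 when FPKM was scaled to the gene total. BAG3 was at 39.5, 44.7 and 28.8 FPKM (log2 0.71, SE 0.27, limma adjusted p = 0.235), each above the highest core library. With the GC trend removed the difference of BAG3 was 0.22 (SE 0.19). DNAJB1 was at 103, 92.5 and 79.4 FPKM, overlapping the core range, with a difference of log2 -0.08 (95% interval -0.57 to 0.42). HSPE1 was at 11.01, 6.09 and 8.76 FPKM, and its MK801 libraries lay on both sides of the core range.

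**Figure D3:**
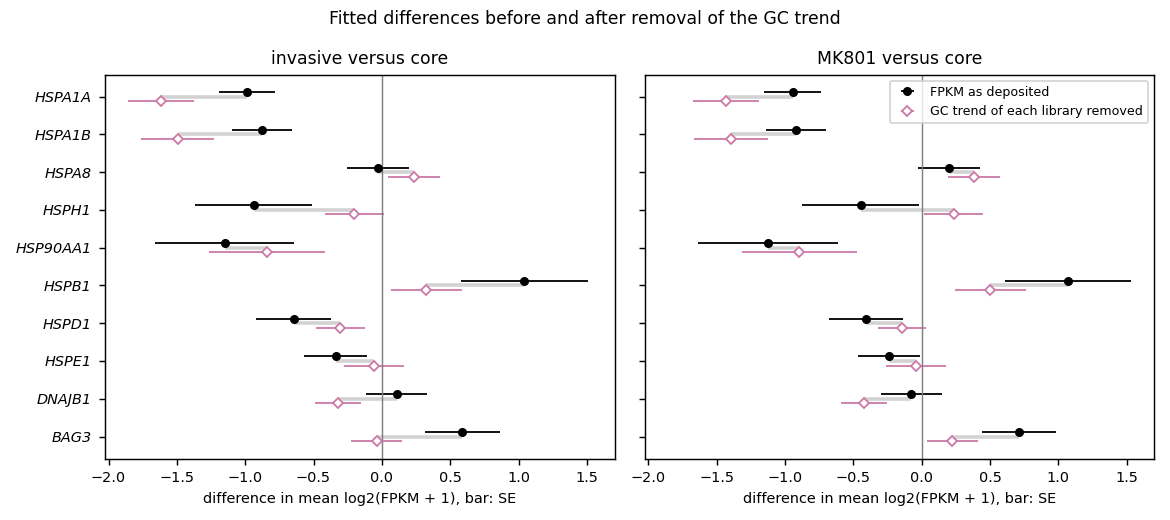
Fitted difference in mean log2(FPKM + 1) with its SE, before (filled circle) and after (open diamond) removal of each library's trend over gene GC content, for invasive and MK801 libraries against core. HSPA1A and HSPA1B move further below 0, whereas HSPH1, HSP90AA1, HSPB1, HSPD1, HSPE1 and BAG3 move toward or across it. In the invasive panel HSPA8 and DNAJB1 cross 0 and end further from it, at 0.24 and -0.32.

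The level of several members moved with the GC content of the library. Across the 9 libraries, which differ in depth as well as in GC content, HSPB1 correlated with the library's mean transcript GC at Pearson's r 0.961 and Spearman's rho 0.917, HSPD1 at -0.937 and -0.833, HSP90AA1 at -0.921 and -0.900, HSPH1 at -0.870 and -0.850 and BAG3 at 0.848 and 0.800. HSPA1A gave -0.701 and -0.450. MK801 replicate 3 differed between members in this respect. Its GC of 51.1% lay within the core range, its HSP90AA1 of 113 FPKM and HSPB1 of 146 FPKM lay within the core range too, and its summed HSPA1A and HSPA1B of 53.1 FPKM lay below the core range of 85.5 to 118 FPKM. These correlations describe 9 libraries in 3 groups and carry no test.

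**Figure D4:**
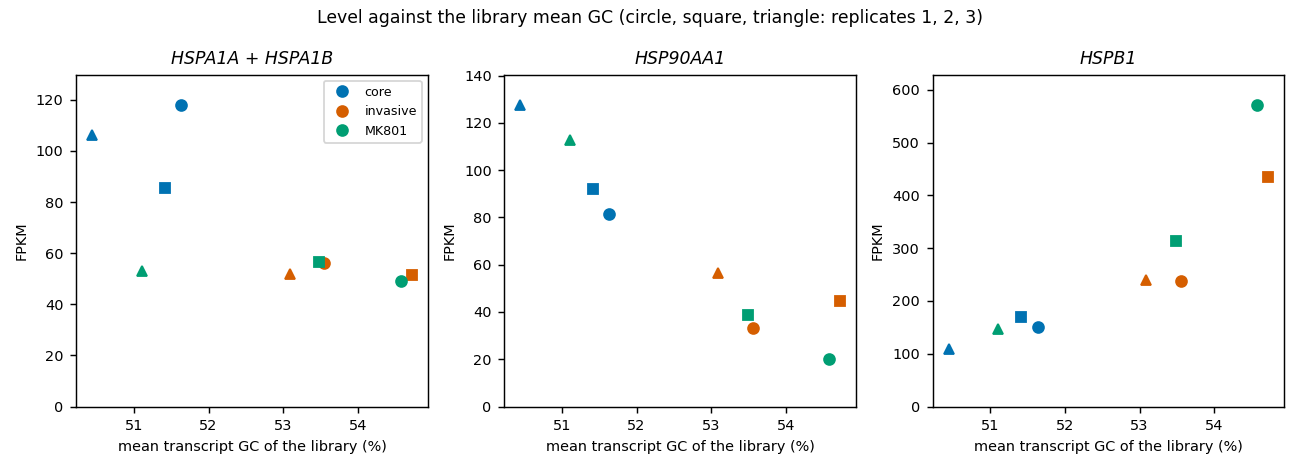
FPKM (y axes from 0) against the mean transcript GC of each of the 9 libraries, coloured by group, for the sum of HSPA1A and HSPA1B, for HSP90AA1 and for HSPB1. HSP90AA1 is lower and HSPB1 higher in libraries of higher GC, whereas the summed HSP70 genes of MK801 replicate 3 lie at 53.1 FPKM beside core libraries of 85.5 to 118 at a like GC content.

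Members also correlated with one another. HSPH1, HSP90AA1 and HSPD1 correlated at r 0.924 to 0.934 over the 9 libraries (rho 0.850 to 0.933), and HSPB1 with HSP90AA1 at r -0.910 (rho -0.867). Each of these genes also correlated with the library's GC content, as given above. The part of GC content and of the groups in these values was not tested. HSPA1A and HSPA1B correlated at r 0.939 but rho 0.533, since the order within the low libraries differed. DNAJB1 with HSPA1A gave r 0.01 (rho -0.07), although both are heat-inducible. HSPD1 with HSPE1, which share a promoter region, gave r 0.504 (rho 0.433).

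The third comparison set MK801 against the invasive fraction, where drug, mix of fractions and separation again cannot be told apart. Limma called 0 of the 10 genes, as 0% of all genes tested, with 0 of the 10 and 8.26% of all genes at an unadjusted p under 0.05. limma-voom called 0 of the 10 and 0% of all genes. HSPA8 alone had groups that did not overlap, with MK801 higher, where 10.8% of all genes tested did not overlap (5.22% higher and 5.63% lower). HSPA1A averaged 20.6 ± 0.782 FPKM over MK801 libraries and 20.01 ± 2.48 over invasive ones, a difference of log2 0.04 with a 95% interval from -0.42 to 0.50. For HSPA1B the interval was -0.53 to 0.45, and the intervals of HSP90AA1 (-1.10 to 1.16) and HSPB1 (-0.998 to 1.05) were wide.

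Other genes of the chaperone network were counted from lists, with 0 called in the 9-library fit in any list and comparison. For invasive versus core, the median log2 difference of the 10 genes was -0.49, against -0.02 for all genes tested. Of 11 other HSP90 genes and co-chaperones 8 were higher and 3 lower, with a median of 0.47 that was 0.27 with the GC trend removed. HSP90AB1, the constitutive HSP90, was the most abundant of them with a core mean of 535 ± 44.4 FPKM, an invasive mean of 615 ± 197 and an MK801 mean of 630.15 ± 129 (log2 0.16 and 0.22 against core). CDC37, which brings kinases to HSP90, was at 61.0 ± 7.33 FPKM in core and 92.6 ± 24.6 in invasive libraries, a log2 difference of 0.57 that was -0.092 with the GC trend removed. Of 15 other cytosolic J-domain genes 12 were lower (median -0.45), among them DNAJA1, a heat-inducible HSP70 partner, at 57.0 ± 4.86 FPKM in core and 30.5 ± 2.74 in invasive libraries. DNAJC5 was higher, at 39.0 ± 4.91 FPKM in core and 55.7 ± 7.69 in invasive libraries. Its log2 difference of 0.50 was -0.073 with the GC trend removed. With the GC trend removed, the median of the J-domain list was -0.03.

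Genes listed as exchange factors and partners of HSP70 went both ways, with 4 of 9 higher. BAG6, a quality-control factor, was at 79.0 ± 10.6 FPKM in core and 173 ± 71.0 in invasive libraries. HSPBP1 was at 29.1 ± 3.61 FPKM in core and 76.7 ± 20.3 in invasive libraries. Its log2 difference of 1.34 was 0.60 with the GC trend removed. ST13, which steadies HSP70 bound to its client, was at 59.3 ± 8.12 and 38.6 ± 1.69 FPKM. Of 14 other mitochondrial chaperones and proteases 5 were higher and 9 lower. HSPA9, the mitochondrial HSP70, was at 31.7 ± 3.03 FPKM in core and 20.6 ± 2.11 in invasive libraries, and the protease LONP1 at 29.8 ± 3.06 and 59.2 ± 14.5 FPKM. Removal of the GC trend took the log2 difference from 1.05 to 0.43 for BAG6, from -0.60 to -0.14 for ST13, from -0.60 to -0.27 for HSPA9 and from 0.94 to 0.22 for LONP1. Of 14 genes of the CCT chaperonin and prefoldin 9 were lower (median -0.21, and 0.11 with the GC trend removed). Only 2 of 8 further cytosolic HSP70 genes were tested, HSPA4 and HSPA14, both lower. Of 9 genes listed as other small heat shock genes 3 were tested, of which HSPB6 and HSPB7 were higher and HSPB11 lower. HSPB11 was also counted among the 9 genes listed as exchange factors and partners, and whether it acts in either class was not tested.

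HSF1, the main activator of heat shock genes, averaged 17.8 ± 2.77 FPKM over core, 37.8 ± 16.1 over invasive and 42.5 ± 22.3 over MK801 libraries (limma adjusted p = 0.118 and 0.235 against core). Its difference from core in invasive libraries was log2 0.98 (SE 0.40), and 0.26 with the GC trend removed. HSF2, a related factor, was at 11.2 ± 2.15, 6.45 ± 0.535 and 5.78 ± 2.57 FPKM. Its difference from core in invasive libraries was log2 -0.70, and -0.056 with the GC trend removed. Of 18 other heat-inducible genes tested, a list that shares members with the lists above, 10 were higher and 8 lower in invasive libraries (median 0.20). UBB, a ubiquitin gene, was at 171 ± 32.1 FPKM in core and 349 ± 129 in invasive libraries. For MK801 versus core the counts were 11 higher and 7 lower (median 0.27), against a median of -0.32 for the 10 genes and 0.00 for all genes tested.

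**Figure D5:**
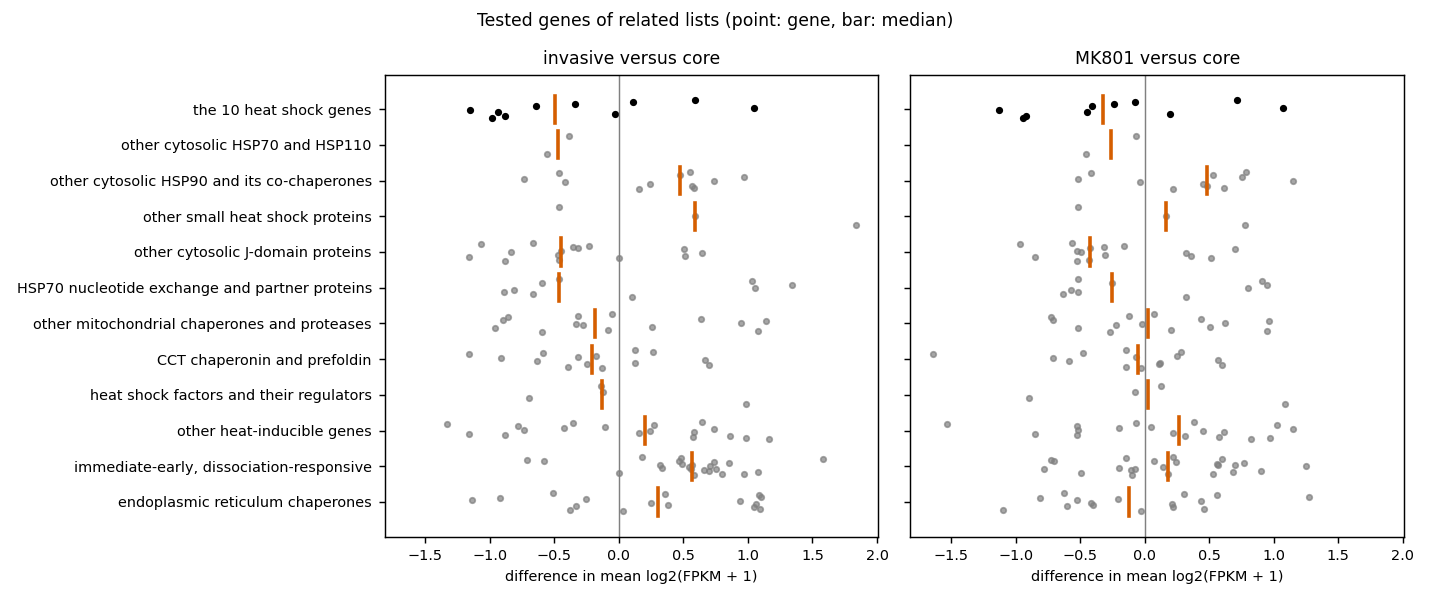
Fitted difference in mean log2(FPKM + 1) against core for every tested gene of each list (points) with the list's median (bar), in invasive and MK801 libraries. The 10 heat shock genes span both sides of 0, as do most of the lists, and their median is -0.49 in the invasive and -0.32 in the MK801 panel.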

How the data were processed

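The labels name poly-A selected libraries sequenced by a provider. The authors deposited FPKM per gene and the gene length used, made with HISAT2 2.0.5 and featureCounts 1.5.0-p3 on GRCh38, per the submitters' processing notes, with settings not given in the sources used here. All 9 value columns were mapped by the column name in each label (0 unmapped), and 99.98% of genes agreed in identifier and position with GENCODE release 29. Fragments were recovered from FPKM and length, and 100% of values came out whole (tolerance 0.01 fragments). The median ratio of the deposited FPKM to the geometric mean over the 13300 genes above 0 in all libraries was 1.016 in each library, so the deposited values already shared median-of-ratios scaling, a step no source here records.

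Group means of log2(FPKM + 1) were fitted over all 9 libraries with limma 3.58.1 (R 4.3.3), using a trended empirical Bayes variance and 6 residual degrees of freedom. It was tested on simulated data. Fold changes on this scale are understated for low genes. GC content is the mean over GENCODE transcripts (known for 99.97% of tested genes), and its loess trend (span 0.3) was removed per library as an alternative. An exact permutation test of 3 against 3 cannot give p below 0.1, so none is given. The genes, lists and alternatives were chosen with earlier results of these data known. Named genes are the 10 members, HSF1, HSP90AB1, up to 3 genes per list by mean FPKM, and the 5 genes most correlated with HSPA1A plus HSPA1B and with HSPE1. TECR, AL671762.1 and HSPE1-MOB4 were named besides, for their overlap with members.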

Additional observations from a re-analysis of the deposited data

How the results depend on the processing

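Of the recomputed differences of single genes, 529 kept their direction and their side of the threshold, 30 passed the threshold only under the alternative, and 35 turned sign; the cause was not tested. The count of the 10 genes called, 0 in all comparisons, was 6 for invasive versus core in the fit of the 6 libraries compared, beside 54.6% of all genes. It was 3 in that fit with the GC trend removed, beside 21.2% of all genes. It ranged from 0 to 6 when single libraries were left out, and from 0 to 7 for MK801 versus core. In each of these the highest count came without MK801 replicate 3, where 42.1% and 51.1% of all genes were called. Pseudocount 0.1, no filter, median-of-ratios scaling (which left the values as they were), scaling to the gene total, the GC trend removed, voom and the summed HSP70 genes gave 0 calls. With the replicate block, 3 genes were called in invasive versus core (HSPA1A, HSPA1B and HSP90AA1), beside 2525 of all 11845 genes tested, and 0 with the block and the GC trend removed. Core and invasive columns share their numbers, but whether same-numbered libraries came from the same device is not given in the sources used here. The fit without the block treats them as unpaired. Deviations of same-numbered invasive and core libraries correlated at -0.0070, 0.243 and 0.445, and not every library correlated best with its own number. So few correlations cannot settle whether the libraries are paired. Scaling to the gene total, chosen after the data were seen, shifted the median of all genes by log2 -0.25 for invasive and -0.21 for MK801 versus core. It turned DNAJB1 to -0.20 in the first and HSPA8 to -0.10 in the second.

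With the GC trend removed, in the 9-library fit with or without the replicate block and in the 6-library fit, the sign turned for HSPA8 (0.24 and 0.23), DNAJB1 (-0.32 and -0.34) and BAG3 (-0.037 and -0.051) in invasive versus core, for HSPH1 in MK801 versus core (0.23 and 0.24), and for HSPA1B (0.10 and 0.10) and HSP90AA1 (-0.056 and -0.053) in MK801 versus invasive. Voom turned HSP90AA1 in the last comparison (-0.042). Leaving out single libraries turned DNAJB1 in MK801 versus core (-0.16 to 0.021). In MK801 versus invasive it gave HSPA1A -0.059 to 0.097, HSPA1B -0.13 to 0.038, HSPH1 -0.069 to 0.94, HSP90AA1 -0.63 to 0.58, HSPB1 -0.44 to 0.54, HSPD1 -0.057 to 0.40, HSPE1 -0.076 to 0.30 and BAG3 -0.022 to 0.32. Where a group is left with 2 libraries, the fit assumes they vary like the others. At 186 to 1126 fragments, HSPE1 had the least depth of the 10 genes.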

Other observations

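Chaperones of the endoplasmic reticulum fold secreted proteins. Of 16 tested, 10 were higher in invasive than in core libraries (median log2 0.30) and 12 were lower in MK801 than in invasive libraries (median -0.39), with 0 called by limma on 9 libraries in either comparison. CALR, a chaperone of glycoproteins, averaged 223 ± 42.4 FPKM over core, 458 ± 52.4 over invasive and 267 ± 87.8 over MK801 libraries (SD, n = 3). HSPA5, the HSP70 of this compartment, was at 92.3 ± 5.07, 95.4 ± 20.04 and 91.9 ± 19.5 FPKM, level as HSPA8 was in the control fractions.

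Immediate-early genes, which handling and enzymatic release of cells can also induce, were counted because the cells were taken from a gel with an enzyme. Of 23 tested, 20 were higher in invasive than in core libraries, with a median of log2 0.56 that was 0.05 with the GC trend removed. FOS, a transcription factor of this class, averaged 611 ± 52.6 FPKM over core, 919 ± 116 over invasive and 604 ± 236 over MK801 libraries, and EGR1 at 603 ± 49.2, 955 ± 74.3 and 577 ± 178 FPKM. JUN was at 432 ± 38.8, 431 ± 14.7 and 314 ± 89.0 FPKM. Their part in the levels of HSPA1A and HSPA1B, which were lower in the invasive libraries, was not tested.

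The protein-coding genes whose log2(FPKM + 1) over the 9 libraries was most like that of the summed HSPA1A and HSPA1B were EPC1, NECAB1, DBI, TMEM200A and LIPT1, with Pearson's r 0.916, 0.915, 0.907, 0.905 and 0.899 (Spearman's rho 0.817, 0.900, 0.717, 0.717 and 0.800). DBI, which binds acyl-CoA, averaged 20.7 ± 1.44 FPKM over core, 13.7 ± 1.54 over invasive and 13.2 ± 2.03 over MK801 libraries. The genes most like HSPE1 were DNAJC8, CIAO2A, GLRX2, NFU1 and GARS, at r 0.971, 0.954, 0.953, 0.940 and 0.922 (rho 0.883, 0.933, 0.950, 0.967 and 0.883). These are the highest of many correlations over 9 libraries that share a base-composition trend.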
